A study of Homo sapiens with 9 samples.

Results

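The nuclear-encoded genes of oxidative phosphorylation were examined in OVCAR5, an established human ovarian cancer cell line. Protein-coding genes were taken by symbol: those beginning with NDUFA, NDUFB, NDUFC, NDUFS, NDUFV, UQCR, COX4, COX5, COX6, COX7, COX8 or ATP5, together with SDHA, SDHB, SDHC and SDHD, without the NDUFAF assembly factors. Of 60649 gene identifiers in the count table, 90 carried such a symbol, and the 80 with a mean of at least 1 CPM (read counts scaled to the library total) over the 9 libraries were kept. They comprised 36 genes of complex I, 4 of complex II, 9 of complex III, 13 of complex IV and 18 of complex V.

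Oxidative phosphorylation takes place in the inner mitochondrial membrane. Complexes I and II pass electrons from NADH and succinate to coenzyme Q, complex III hands them to cytochrome c, complex IV reduces oxygen, and complex V (ATP synthase) uses the proton gradient built by complexes I, III and IV to make ATP. Most subunits are encoded in the nucleus, translated in the cytosol and imported, and they assemble with a small set of subunits made inside the organelle, so that transcript level is only one of the layers at which the machinery is set.

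The study compared 3 libraries labelled NC (control) with 3 labelled SM2 and 3 labelled SM4, both described as a stable knockdown of METTL3, the methyltransferase that writes N6-methyladenosine (m6A) into messenger RNA. All 9 were described as OVCAR5 cells that had received lentivirus and puromycin selection, although the sources conflict on this. The control is parental in the labels and carries a control hairpin in the methods, the hairpin behind SM2 or SM4 is not given in the sources used here, and the source field names other OVCAR lines for the libraries labelled SM4. Nothing says that the 3 libraries of a group came from separate cultures, so p-values measure only the spread between these libraries, which may be technical.

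METTL3 itself measured 36.3, 34.4 and 36.6 CPM in the libraries labelled NC, 37.1, 39.8 and 40.0 in those labelled SM2 and 60.6, 57.5 and 62.4 in those labelled SM4. The SM4 libraries all lay above the others, which goes against their label as a knockdown. The SM2 libraries also all lay above NC, so neither labelled knockdown was lower than NC. The log2 fold change was 0.75 (adjusted p = 2.21e-09, SE 0.05) for SM4 against NC and 0.12 (adjusted p = 0.12, SE 0.05) for SM2 against NC, by edgeR (quasi-likelihood F test) with Benjamini-Hochberg adjustment over the 19674 genes tested. The group labels may be exchanged. Among a control and 2 knockdowns the control would have the highest METTL3 level, and here that was the group labelled SM4. The labels were kept, since METTL3 transcript alone does not fix the identity of each group. If the group labelled SM4 is the control, SM2 against NC compares 2 knockdowns. SM4 against NC and SM4 against SM2 would then each set the control against a knockdown. The group names below therefore stand for the labels only: a value against NC may not be knockdown against control, SM4 against SM2 may not be a comparison of 2 knockdowns, and no direction is tied to METTL3. The other facts of the series that touch these genes are few. Totals ran from 44103272 to 63693728 counts, so that 1 CPM stood for 44.1 to 63.7 counts, and the lowest member count in any library was 74. All 7 epithelial markers were abundant, from 142 CPM (MUC1) to 6031 CPM (KRT8), with 4 called higher and 2 lower in SM2 against NC (median 0.19 on the log2 scale) and 4 higher and 1 lower in SM4 (median 0.14), whereas 7 of 10 markers of other cells (PTPRC, CD3E, CD79A, CDH5, COL3A1, DCN and HBB) stayed under 1 CPM in every library. LYZ (31.5 to 54.2 CPM), COL1A1 (20.8 to 25.7 CPM) and PECAM1 (5.30 to 15.2 CPM) were detected throughout. Of the 5 of these 10 that entered the test, PECAM1 rose by 0.59 in SM2 and 1.32 in SM4 against NC on the log2 scale, and LYZ rose by 0.50 in SM2 and changed by -0.17 in SM4. The part of these markers in the results was not tested, and in bulk RNA fewer cells of a kind and less RNA per cell cannot be told apart. The 37 genes of the mitochondrial genome were listed at 0 counts in every library, so the subunits made inside mitochondria could not be set beside the nuclear ones.

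SM2 replicate 3 stood apart from the other libraries for these genes. Relative to the mean of the 9 libraries, the median of the 80 genes was 0.17 higher on the log2 scale in SM2 replicate 3 and between -0.06 and 0.07 in the other 8 libraries. The same library was high for other short transcripts: the median of 451 other genes of at least 20 CPM with a canonical transcript under 1000 bases was 0.19, and that of 3423 other genes of 4000 bases or more was -0.11. The oxidative phosphorylation genes are short, with a median transcript of 760.5 bases against 3314 bases for the other protein-coding genes tested, and 47 of the 80 lie under 1000 bases. The part of transcript length in the results was not tested beyond the fits given here, and counts of members called are therefore also given without SM2 replicate 3.

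**Figure D1:**
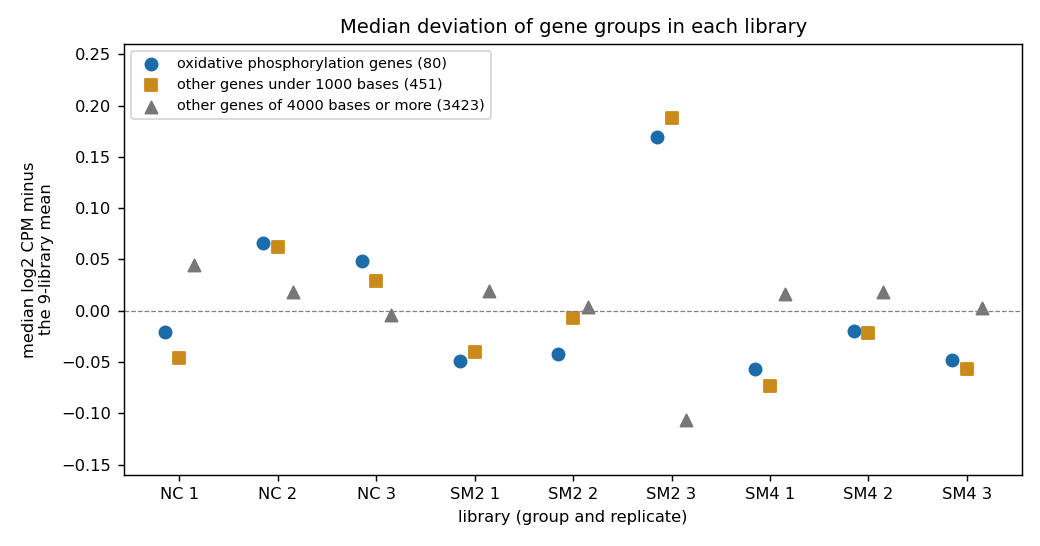
Median deviation of 3 gene groups in each of the 9 libraries (x axis: library; y axis: median log2 CPM minus the 9-library mean). Circles are the 80 oxidative phosphorylation genes, squares 451 other genes with transcripts under 1000 bases and triangles 3423 other genes of 4000 bases or more. SM2 replicate 3 holds the highest circle (0.17), the highest square (0.19) and the lowest triangle (-0.11).

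The differences of the 80 genes were small. In SM2 against NC, 8 of 80 passed an adjusted p of 0.05, 3 higher and 5 lower, where 22.3% of all genes tested passed (12% higher and 10.3% lower) and 33.1% of genes of at least 20 CPM, the range that holds 74 of the 80. In SM4 against NC, 13 of 80 passed, 2 higher and 11 lower, beside 21.2% of all genes (11% higher, 10.2% lower) and 31.9% of those of at least 20 CPM. In SM4 against SM2, tested directly, 6 of 80 passed and all 6 were lower, beside 12.8% of all genes (6.04% higher, 6.76% lower) and 20.7% of those of at least 20 CPM. With all 9 libraries and these settings the share of members called was below the background in each comparison, and in some other fits it was above. Without SM2 replicate 3 it was 31.2% beside 22.9% of all genes in SM2 against NC and 28.8% beside 25.9% in SM4 against NC. With only the 6 libraries compared it was 30.0% beside 27.2% in SM4 against NC, and without SM2 replicate 1 it was 17.5% beside 12.1% in SM4 against SM2. With no filter on low counts, which adds genes of few counts to give 37277 tested, it was 13.8%, 20% and 16.2% beside 11.5%, 11.02% and 7.06% in the 3 comparisons. With upper-quartile normalization the 3 higher and 5 lower calls of SM2 against NC became 5 and 2, and the 2 and 11 of SM4 against NC became 3 and 8. The median size of the log2 change was 0.07, 0.09 and 0.07 in the 3 comparisons, against 0.16, 0.16 and 0.14 over all genes and 0.10, 0.10 and 0.08 over genes of at least 20 CPM. The fold changes of all 80 lay between 0.777 and 1.22 in SM2 against NC, from 0.839 to 1.18 for SM4 against NC, and from 0.786 to 1.2 for SM4 against SM2. For 78, 80 and 78 of the 80, the 95% interval of the log2 change stayed within 0.5 of 0.

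In SM4 against NC, 66 of 80 estimates were below 0, with a median of -0.07, while 49.8% of all genes were above 0 and their median was -0.00. In SM2 against NC the split was 37 above and 43 below, with a median of -0.02. Without SM2 replicate 3, the count for SM2 against NC went from 8 to 25 (3 higher, 22 lower) with a median of -0.08 and 62 of 80 below 0, beside 22.9% of all genes called in that fit. The count for SM4 against NC went from 13 to 23 (3 higher, 20 lower) with a median of -0.07, beside 25.9% of all genes. In SM4 against SM2 the 6 lower calls became 4 higher and 3 lower, with 42 of 80 estimates above 0. Leaving out SM2 replicate 1 instead turned the SM2 against NC split the other way, to 8 higher and 3 lower, with a median of 0.03 and 46 of 80 above 0. By complex, the calls without SM2 replicate 3 for SM2 against NC were 8 (I), 2 (II), 3 (III), 3 (IV) and 9 (V), and for SM4 against NC 6, 2, 3, 4 and 8. The 47 members under 1000 bases had a median of -0.07 in SM4 against NC, as did the 451 other genes of that length, while the 8 members of 4000 bases or more had -0.07 and the 3423 other genes of that length -0.00. In SM2 against NC the short members had 0.02 and the other short genes 0.03, and in SM4 against SM2 -0.08 and -0.09. Removing the trend with transcript length from every library left 24 of 80 estimates above 0 in SM4 against NC, with a median of -0.04.

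**Figure D2:**
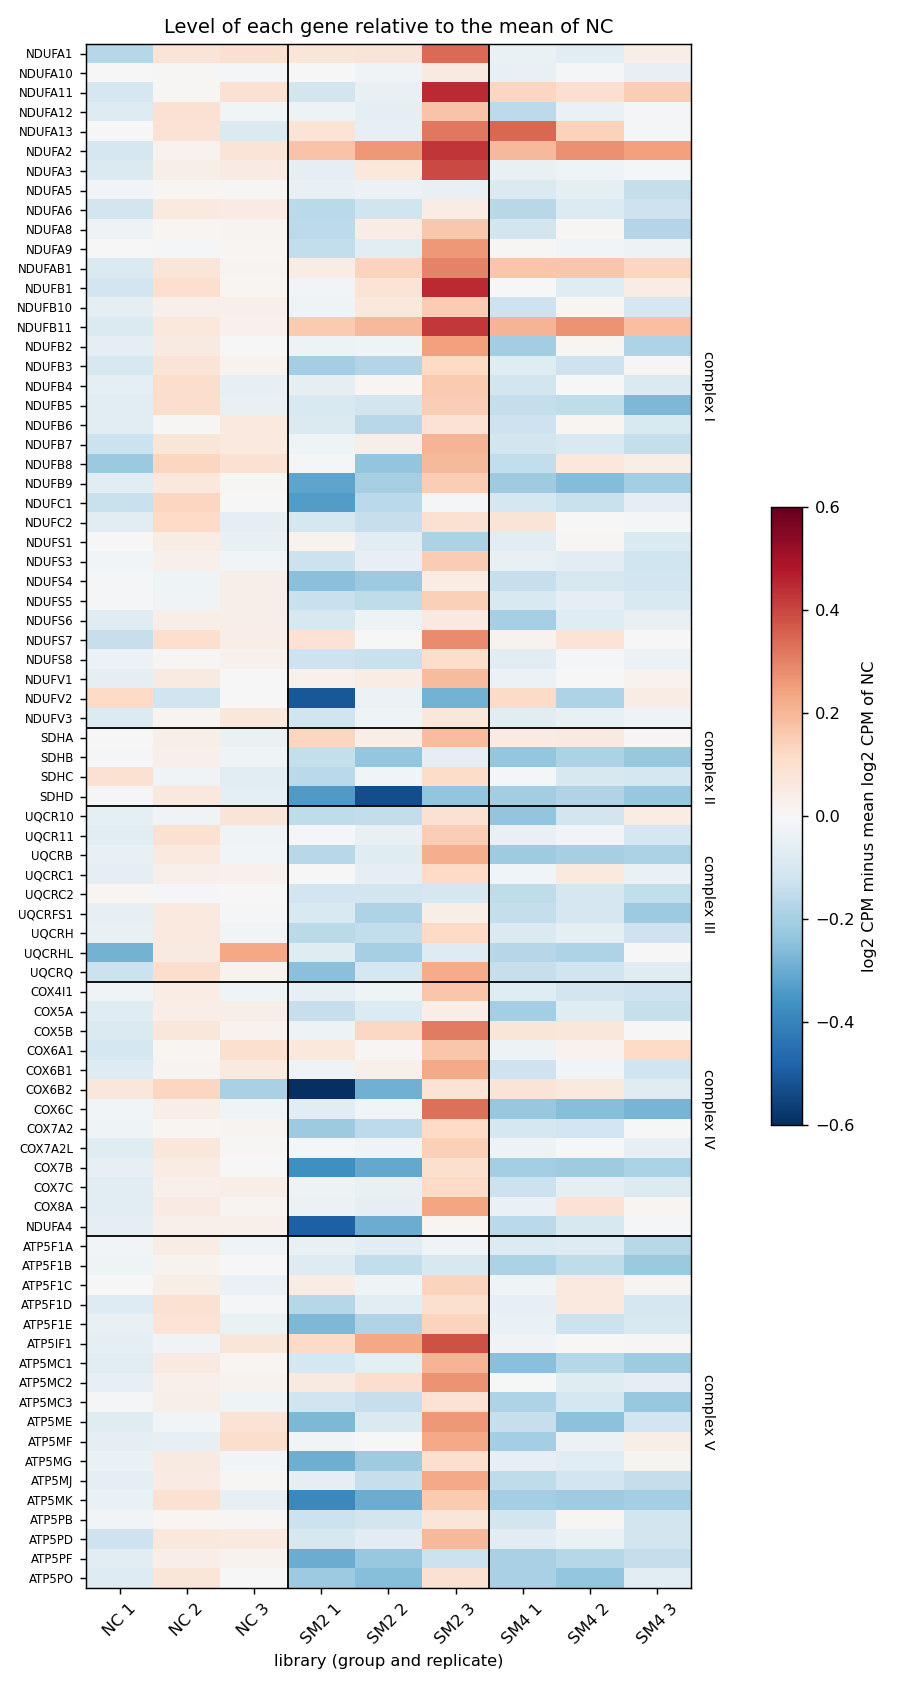
Level of 79 of the 80 genes (rows, by complex) in each library (columns), as log2 CPM minus the mean log2 CPM of the 3 NC libraries; red is above and blue below that mean, with colours saturating at 0.6. SM2 replicate 3 is red across most rows. SDHB, SDHD, UQCRC2, ATP5F1B and ATP5PF are blue in all 6 SM2 and SM4 libraries, as are, very faintly in places, NDUFA5, NDUFC1 and ATP5F1A. NDUFA2 and NDUFB11 are red in all 6, as are, very faintly in places, NDUFAB1, SDHA and NDUFS7.

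The 6 genes that passed the test in the same direction against NC in both SM2 and SM4 were NDUFA2 and NDUFB11, which rose, and SDHB, SDHD, UQCRC2 and ATP5PF, which fell. Of all genes tested, 22.3% passed in SM2 and 21.2% in SM4 against NC, and the share that passed in both was not counted. The 6 are therefore a list of calls with no background beside it. Both comparisons use the same NC libraries. The SM2 calls of SDHB and UQCRC2 were lost in 11 and 12 of 19 other fits and the SM4 call of ATP5PF in 5. Their promoters are shown because each gene was called in the same direction in both comparisons, although the 6 did not all move the same way. The sequence is that of RefSeq (GRCh38.p14), 130 bases before to 20 after the annotated start. Capitals mark exact matches, on either strand, to the letters GCGCATGC (nuclear respiratory factor 1, NRF1), CCGGAAG (ETS family, which includes GABPA), AAGATGGCG (YY1), GGGCGG (Sp1) and CCAAT; none of these words contains another, and matches to NRF1 on both strands overlap in SDHD.
NDUFA2, chr5:140647611-140647760, minus strand: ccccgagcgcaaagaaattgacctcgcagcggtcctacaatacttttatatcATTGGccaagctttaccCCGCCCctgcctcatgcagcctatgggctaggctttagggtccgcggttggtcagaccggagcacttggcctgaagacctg
NDUFB11, chrX:47144683-47144832, minus strand: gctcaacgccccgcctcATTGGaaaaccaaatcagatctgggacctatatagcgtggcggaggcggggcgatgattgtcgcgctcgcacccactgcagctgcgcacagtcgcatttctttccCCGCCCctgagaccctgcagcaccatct
SDHB, chr1:17054013-17054162, minus strand: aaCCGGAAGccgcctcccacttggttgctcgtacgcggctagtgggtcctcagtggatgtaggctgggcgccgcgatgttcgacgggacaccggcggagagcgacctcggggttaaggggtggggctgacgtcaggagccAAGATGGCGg
SDHD, chr11:112086743-112086892, plus strand: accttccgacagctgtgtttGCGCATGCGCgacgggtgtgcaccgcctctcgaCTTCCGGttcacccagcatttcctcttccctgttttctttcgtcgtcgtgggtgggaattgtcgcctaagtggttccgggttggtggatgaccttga
UQCRC2, chr16:21953231-21953380, plus strand: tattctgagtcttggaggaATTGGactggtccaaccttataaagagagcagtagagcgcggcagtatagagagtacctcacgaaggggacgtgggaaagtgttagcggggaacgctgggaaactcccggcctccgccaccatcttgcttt
ATP5PF, chr21:25735035-25735184, minus strand: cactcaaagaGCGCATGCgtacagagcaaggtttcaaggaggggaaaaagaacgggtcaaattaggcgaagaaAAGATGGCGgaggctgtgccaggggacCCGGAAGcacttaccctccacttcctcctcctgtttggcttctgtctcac

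The NRF1 and ETS letters both occurred in the windows of SDHD and ATP5PF, and the YY1 letters in those of SDHB and ATP5PF, whereas the windows of NDUFA2 and NDUFB11 held only the Sp1 and CCAAT letters. The window of UQCRC2 held only the CCAAT letters. Over the whole 300-base windows of the table, from 250 before to 50 after the start, 66 of the 80 genes had an entry, and those without included ATP5F1B, ATP5F1D, ATP5MC3, ATP5MF, COX6C, NDUFA4, NDUFB5, NDUFB9, NDUFC2, NDUFS5, SDHC, UQCRB and UQCRHL. Of these 66, 13 (19.7%) held the NRF1 letters, against 5.07% of 11018 other tested genes and 3.05% of all 35116 promoters. The ETS letters were in 20 (30.3%) against 18.2% and 10.3%, and the YY1 letters in 7 (10.6%) against 3.69% and 1.75%. The Sp1 letters were in 41 (62.1%) against 68.9% and 45%, and the CCAAT letters in 23 (34.8%) against 36.4% and 34.6%. A match is a description of the letters and not a binding site. The levels of NRF1 and GABPA themselves did not pass the test: NRF1 gave 0.08 (adjusted p = 0.465, SE 0.07) in SM2 and 0.01 (adjusted p = 0.918, SE 0.07) in SM4, and GABPA -0.08 (adjusted p = 0.381, SE 0.06) and -0.04 (adjusted p = 0.724, SE 0.06), in edgeR log2 fold changes against NC.

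The letters GGACT, one form of the short motif in which METTL3 methylates adenosine, were few in these transcripts. The canonical transcripts of 28 of the 80 (35.0%) lacked them, against 8.50% of 13705 other tested protein-coding genes. Per kb the difference was small, with a median of 0.815 in the 80 and 0.935 in the others. SDHB had 0 such motifs, NDUFB11 and ATP5PF 1 each, SDHD and NDUFA2 2 each and UQCRC2 3.

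**Figure D3:**
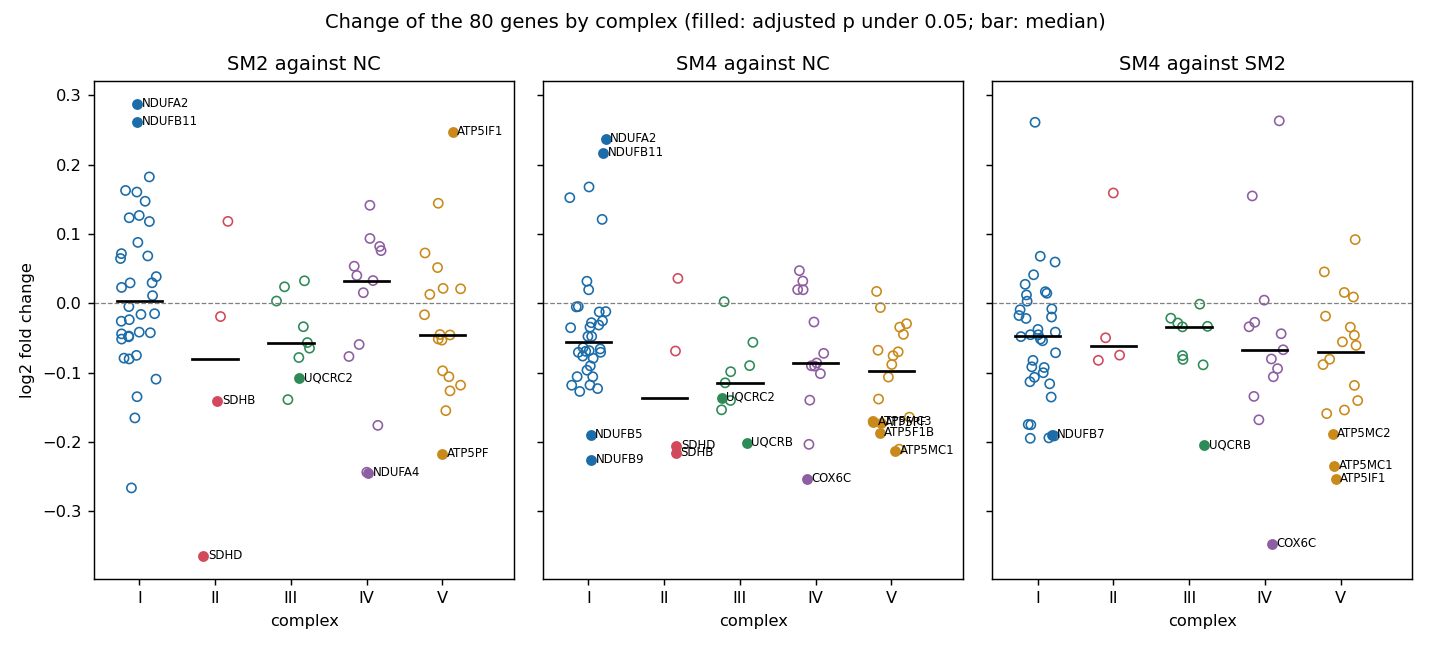
Log2 fold change of the 80 genes (y axis) by complex (x axis) in the 3 comparisons. Filled, named points had an adjusted p under 0.05 and bars are medians per complex. In SM4 against NC the medians of all 5 complexes are below 0, from -0.06 in complex I to -0.14 in complex II.

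Complex I, the NADH dehydrogenase, held the 2 genes that rose in both comparisons. NDUFA2 (ENSG00000131495.9, GRCh38 chr5:140638740-140647771, minus strand), an accessory subunit of the NADH-oxidising arm, measured 37.3, 40.5 and 42.2 CPM in the libraries labelled NC, 44.9, 47.9 and 53.7 in those labelled SM2 and 45.7, 48.3 and 47.4 in those labelled SM4. All 6 SM2 and SM4 libraries lay above all 3 NC libraries. The log2 fold change was 0.29 (adjusted p = 0.00226, SE 0.06) in SM2 and 0.24 (adjusted p = 0.0101, SE 0.06) in SM4. NDUFB11 (ENSG00000147123.11, GRCh38 chrX:47142071-47145466, minus strand), an accessory subunit of the membrane arm, measured 46.7, 51.8 and 50.6 CPM in the libraries labelled NC, 55.3, 56.9 and 66.6 in those labelled SM2 and 57.2, 59.8 and 56.3 in those labelled SM4. Again the SM2 and SM4 libraries did not overlap with NC, with changes of 0.26 (adjusted p = 0.00463, SE 0.06) and 0.22 (adjusted p = 0.0175, SE 0.06). SM2 replicate 3 was the highest library for both genes; without it, NDUFA2 changed by 0.22 (adjusted p = 0.00564) and NDUFB11 by 0.18 (adjusted p = 0.0146) in SM2 against NC.

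Of the other complex I genes, NDUFB5 and NDUFB9 fell in SM4 against NC and NDUFB7 fell in SM4 against SM2. NDUFB9, an accessory subunit of the membrane arm, measured 126, 138 and 133 CPM in the libraries labelled NC, 106, 115 and 146 in those labelled SM2 and 114, 110.3 and 115 in those labelled SM4. The SM4 libraries lay below NC, and the SM2 libraries spread on both sides of the NC range. Without SM2 replicate 3, the change of NDUFB9 in SM2 against NC was -0.26 (adjusted p = 8.79e-05). With all 9 libraries its change was -0.23 (adjusted p = 0.0423, SE 0.08) in SM4 against NC. NDUFB5 gave -0.19 (adjusted p = 0.0489, SE 0.07) in the same comparison, just inside the threshold, and NDUFB7 gave -0.19 (adjusted p = 0.0453, SE 0.06) in SM4 against SM2; leaving out SM2 replicate 3 took NDUFB7 to -0.12 (adjusted p = 0.155).

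NDUFV1, NDUFV2, NDUFS1, NDUFS3, NDUFS7 and NDUFS8, core subunits on the path of electrons from NADH to coenzyme Q, did not pass the test in any comparison with all 9 libraries. NDUFV1, the flavin-bearing subunit that takes electrons from NADH, was the most abundant complex I gene in CPM, at 322 ± 11.9 in NC, 342 ± 21.5 in SM2 and 320.5 ± 6.09 in SM4 (mean ± SD, n = 3). Its log2 change was 0.09 (95% interval -0.01 to 0.18, adjusted p = 0.199) in SM2 and -0.00 (95% interval -0.10 to 0.09, adjusted p = 0.962) in SM4. NDUFS1, the largest core subunit, gave -0.08 (95% interval -0.18 to 0.03, adjusted p = 0.329) and -0.05 (95% interval -0.15 to 0.06, adjusted p = 0.581). NDUFS7, which lies beside the quinone site, gave 0.12 (95% interval -0.03 to 0.28, adjusted p = 0.264) in SM2 and 0.03 (95% interval -0.12 to 0.19, adjusted p = 0.823) in SM4. NDUFS3 and NDUFS8 gave -0.08 and -0.04 in SM4 and -0.00 and -0.05 in SM2. Without SM2 replicate 3, edgeR called NDUFS8 in SM2 against NC, at -0.13 (adjusted p = 0.0253).

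NDUFV2, the partner of NDUFV1, was counted at only 2.19 CPM, the lowest mean of the 80. The processed pseudogene NDUFV2P1, a separate row of the table, stood at 13.8 CPM, above its parent gene. For 50 of the 80 genes the annotation has pseudogenes named after them, 187 in all with 65.9 CPM together. They exceeded 5% of the parent's level for 3 genes: NDUFV2, COX6A1 (7 pseudogenes, 15.5 CPM against 38.0) and UQCRFS1 (3 pseudogenes, 5.38 CPM against 66.4). How reads were split between these copies is not given in the sources used here, so the levels of these 3 genes are uncertain, as are those of UQCRH and its near-identical intronless copy UQCRHL. NDUFA7, the gene just outside the limit of 1 CPM, stood at 0.382 CPM, and 32.5% of its exon sequence is covered by other annotated genes. Other genes cover over 50% of the exon sequence of ATP5ME (61.3%, by MYL5 on the opposite strand) and NDUFS7 (51.4%), neither of which was called. COX6B2, at 2.84 CPM, was the member next above NDUFV2.

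Complex II, succinate dehydrogenase, had 2 of its 4 genes (50%) called in each comparison with NC. Of all genes tested, 22.3% passed in SM2 and 21.2% in SM4, and of those of at least 20 CPM 33.1% and 31.9%. In SM4 against SM2 complex II had 0 by edgeR and 0 by DESeq2, where 1 gene, SDHD, had an unadjusted p under 0.05 in edgeR. SDHD (ENSG00000204370.13, GRCh38 chr11:112086824-112120016, plus strand), which anchors the enzyme in the membrane and binds the haem, measured 81.7, 85.7 and 79.0 CPM in the libraries labelled NC, 64.8, 56.7 and 69.7 in those labelled SM2 and 71.1, 72.4 and 70.1 in those labelled SM4. Every SM2 and SM4 library lay below every NC library, and SM2 lay lowest. The log2 fold change was -0.36 (adjusted p = 1.36e-04, SE 0.06) in SM2 against NC, the largest of any of the 80 genes in any comparison, and -0.21 (adjusted p = 0.0169, SE 0.06) in SM4. The difference between SM4 and SM2 was 0.16 (adjusted p = 0.0926, SE 0.06). In the fit without SM2 replicate 3, SDHD changed by -0.43 (adjusted p = 3.42e-07) in SM2 against NC, and the difference between SM4 and SM2, 0.23, passed the test (adjusted p = 0.00313).

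SDHB (ENSG00000117118.10, GRCh38 chr1:17018664-17054032, minus strand), the iron-sulphur subunit that links the succinate site to the membrane, measured 96.1, 98.5 and 94.9 CPM in the libraries labelled NC, 87.3, 82.2 and 93.0 in those labelled SM2 and 82.2, 84.7 and 82.4 in those labelled SM4. The NC libraries lay above all others, with no overlap. It changed by -0.14 (adjusted p = 0.0424, SE 0.05) in SM2 and -0.22 (adjusted p = 0.00256, SE 0.05) in SM4. SDHA, the flavoprotein that oxidises succinate, did not pass the test, at 0.12 (95% interval -0.00 to 0.24, adjusted p = 0.153) in SM2 and 0.04 (95% interval -0.08 to 0.15, adjusted p = 0.729) in SM4. SDHC, the other membrane anchor, gave -0.02 (95% interval -0.15 to 0.11, adjusted p = 0.88) and -0.07 (95% interval -0.20 to 0.06, adjusted p = 0.517). The summed level of the 4 genes was 259, 263 and 249 CPM in the libraries labelled NC, 229, 218 and 249 in those labelled SM2 and 233, 234 and 228 in those labelled SM4. With all 9 libraries it was the only complex whose sum in SM2 lay below NC in every library, by a margin of 249.3 in SM2 replicate 3 against 249.5 in NC replicate 3, and without SM2 replicate 3 the sums of complexes III, IV and V lay below NC too; the mean difference from NC was -9.88% in SM2 and -10.0% in SM4, given as a description with no test.

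The genes that lie near SDHD on chromosome 11 had a median below 0 in SM2. Among 36 other protein-coding genes of at least 1 CPM within 5 Mb the median log2 change was -0.14 in SM2 and -0.09 in SM4, values chosen after the results were seen. Around SDHB the medians over 61 genes were -0.01 and 0.03. The part of the neighbourhood in these results was not tested.

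Complex III, the cytochrome bc1 complex, had 1 of its 9 genes called in SM2 and 2 in SM4, all lower. These are 11.1% and 22.2%, beside 22.3% and 21.2% of all genes tested. Of genes of at least 20 CPM, 33.1% and 31.9% were called. UQCRC2 (ENSG00000140740.11, GRCh38 chr16:21953288-21983660, plus strand), a core subunit of the matrix side, measured 292, 287 and 290.1 CPM in the libraries labelled NC, 268, 268 and 270.5 in those labelled SM2 and 260.4, 269 and 261 in those labelled SM4. The 6 SM2 and SM4 libraries lay between 260.4 and 270.5 CPM, all under NC. Its change was -0.11 (adjusted p = 0.0489, SE 0.04) in SM2 and -0.14 (adjusted p = 0.0138, SE 0.04) in SM4, and the SM2 call sat just inside the threshold. Its partner UQCRC1 did not pass the test, at 0.02 (95% interval -0.08 to 0.12, adjusted p = 0.787) and 0.00 (95% interval -0.10 to 0.10, adjusted p = 0.983). UQCRFS1, the Rieske iron-sulphur protein, gave -0.15 (95% interval -0.27 to -0.04, adjusted p = 0.0574) in SM4, with all 3 libraries below NC but outside the threshold. UQCRB, a small subunit bound to cytochrome b, measured 146, 157 and 149 CPM in the libraries labelled NC, 134, 143 and 175 in those labelled SM2 and 129.6, 131 and 132 in those labelled SM4. The SM4 libraries lay below both other groups, and the changes were -0.20 (adjusted p = 0.0361, SE 0.07) against NC and -0.20 (adjusted p = 0.0489, SE 0.07) against SM2; without SM2 replicate 3 the latter was -0.08 (adjusted p = 0.219).

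Complex IV, cytochrome c oxidase, had 1 gene called in each comparison. NDUFA4, named for complex I and now counted with complex IV, measured 148, 157 and 157 CPM in the libraries labelled NC, 109.5, 125 and 155 in those labelled SM2 and 138, 144 and 153 in those labelled SM4. In SM2 the libraries ran from below NC to inside its range, and the change was -0.25 (adjusted p = 0.0322, SE 0.08). Without SM2 replicate 3 it was -0.39 (adjusted p = 6.02e-07), and SM4 then differed from SM2 by 0.30 (adjusted p = 5.40e-05). In SM4 against NC it was -0.09 (95% interval -0.26 to 0.08, adjusted p = 0.494). COX6C (ENSG00000164919.11, GRCh38 chr8:99873200-99893707, minus strand), a small structural subunit, measured 81.3, 84.4 and 80.7 CPM in the libraries labelled NC, 78.2, 81.2 and 103 in those labelled SM2 and 70.2, 68.8 and 67.7 in those labelled SM4. The SM4 libraries lay below all others, with changes of -0.25 (adjusted p = 0.015, SE 0.07) against NC and -0.35 (adjusted p = 0.00235, SE 0.07) against SM2. Without SM2 replicate 3 the latter was -0.21 (adjusted p = 0.00128).

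COX4I1, the most abundant complex IV gene and the one through which ATP is thought to inhibit the enzyme, gave 0.03 (95% interval -0.07 to 0.14, adjusted p = 0.71) in SM2 and -0.10 (95% interval -0.21 to 0.00, adjusted p = 0.17) in SM4. In the isoform families the form found in most tissues was expressed and the tissue-restricted form was at or near 0, except for COX6B2. COX4I2 reached 0.00544 CPM, COX7A1 0.106 CPM, COX7B2 0.0132 CPM, COX8C 0.00380 CPM and NDUFA4L2 0.230 CPM as means of 9 libraries, and COX6A2 had 0 counts in all 9. In the library with the lowest total, a count of 0 allows up to 0.068 CPM (3 counts), for counting error only. COX6B2, the testis form, stood at 2.99 ± 0.349 CPM in NC, 2.51 ± 0.605 in SM2 and 3.02 ± 0.170 in SM4, where COX6B1 had 111 ± 5.32, 117 ± 11 and 105 ± 4.36 CPM. Among the common forms, COX6A1, COX6B1, COX7A2, COX7A2L, COX7B and COX8A did not pass the test in any comparison with all 9 libraries. The nearest were COX6B1, with -0.17 (95% interval -0.29 to -0.05, adjusted p = 0.0642) in SM4 against SM2, which DESeq2 and the fit with a replicate block called, and COX7B, with -0.20 (95% interval -0.37 to -0.04, adjusted p = 0.0786) in SM4 against NC and libraries of 58.7 to 59.6 CPM against 65.8 to 70.2 in NC. Without SM2 replicate 3, edgeR called COX7B at -0.33 (adjusted p = 4.71e-06) and COX7A2 at -0.18 (adjusted p = 0.00316) in SM2 against NC. The same fit called COX7B at -0.20 (adjusted p = 5.27e-04) and COX4I1 at -0.10 (adjusted p = 0.0336) in SM4 against NC.

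**Figure D4:**
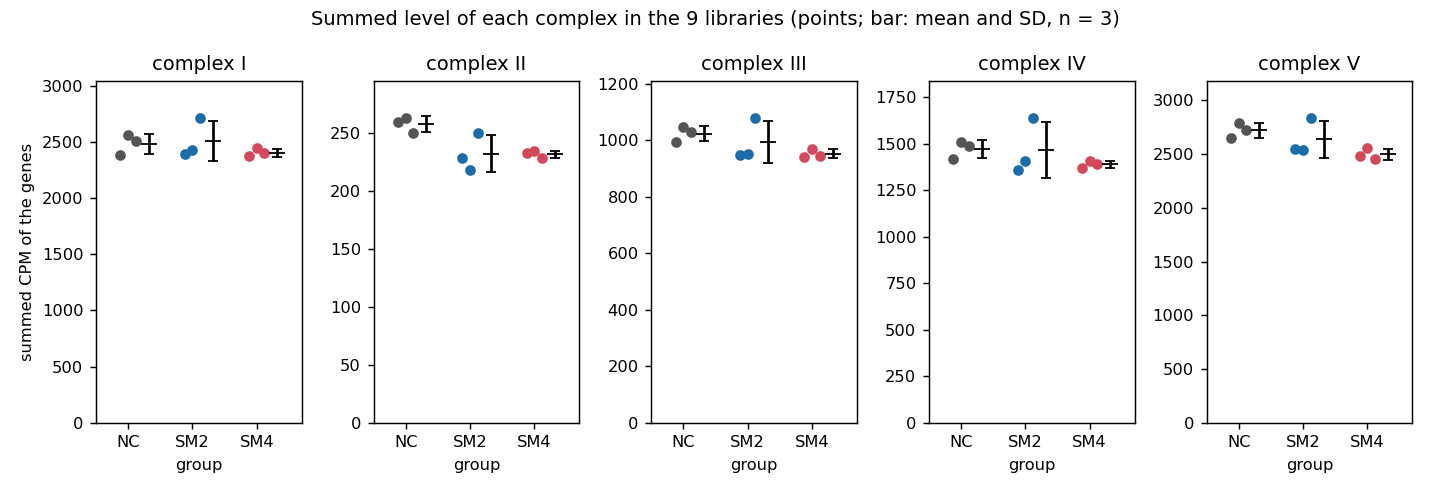
Summed CPM of the genes of each complex (y axis, from 0) in the 9 libraries, by group (x axis); points are libraries and bars the mean and SD of 3. The SM4 points lie below all NC points in complexes II, III, IV and V and overlap with NC in complex I, and SM2 replicate 3 is the highest SM2 point in every complex.

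Complex V, ATP synthase, had 2 of its 18 genes called in SM2, 4 in SM4 and 3 between SM4 and SM2. These are 11.1%, 22.2% and 16.7%, beside 22.3%, 21.2% and 12.8% of all genes tested. Of genes of at least 20 CPM, 33.1%, 31.9% and 20.7% were called. ATP5F1B (ENSG00000110955.9, GRCh38 chr12:56638175-56645984, minus strand), the catalytic beta subunit, was the most abundant of the 80 genes and took 28.2% of the complex V sum. It measured 777, 802 and 793 CPM in the libraries labelled NC, 749.7, 714 and 741 in those labelled SM2 and 694, 712 and 678 in those labelled SM4. SM2 lay below NC and SM4 below SM2, with no overlap between groups. The log2 fold change was -0.19 (adjusted p = 0.00112, SE 0.04) in SM4, -0.11 (adjusted p = 0.0517, SE 0.04) in SM2, just outside the threshold, and -0.08 (adjusted p = 0.189, SE 0.04) between them. ATP5F1A, the alpha subunit, gave -0.11 (95% interval -0.19 to -0.02, adjusted p = 0.0744) in SM4, and ATP5F1C, the central stalk, gave 0.02 (95% interval -0.08 to 0.11, adjusted p = 0.853).

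ATP5PF (ENSG00000154723.13, GRCh38 chr21:25716503-25735673, minus strand), coupling factor 6 of the peripheral stalk, measured 62.3, 66.9 and 66.0 CPM in the libraries labelled NC, 52.8, 55.5 and 59.5 in those labelled SM2 and 56.8, 57.7 and 58.8 in those labelled SM4. All SM2 and SM4 libraries were below NC. Its change was -0.22 (adjusted p = 0.00438, SE 0.05) in SM2 and -0.17 (adjusted p = 0.0215, SE 0.05) in SM4. Of its exon sequence, 37.3% is covered by other genes on the opposite strand, mostly by GABPA at 39.7 CPM, and the strand setting used in counting is not given in the sources used here. GABPA measured 43.9, 39.5 and 39.0 CPM in the libraries labelled NC, 41.1, 37.0 and 37.6 in those labelled SM2 and 39.7, 38.5 and 40.9 in those labelled SM4. The median of the 9 expressed neighbours of ATP5PF was -0.14 in SM2 and -0.14 in SM4.

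ATP5IF1 (ENSG00000130770.18, GRCh38 chr1:28236109-28246906, plus strand) encodes the inhibitor that blocks ATP hydrolysis by the synthase. Of the 3 genes that rose in SM2, it was the one that did not pass the test in SM4, and the difference itself did pass. It measured 61.3, 62.7 and 66.9 CPM in the libraries labelled NC, 68.9, 74.7 and 82.9 in those labelled SM2 and 62.6, 63.6 and 64 in those labelled SM4. The 3 SM2 libraries lay above all others, and SM4 lay inside the NC range. The log2 fold changes were 0.25 (adjusted p = 0.00382, SE 0.06) in SM2 against NC, -0.01 (adjusted p = 0.961, SE 0.06) in SM4 against NC and -0.25 (adjusted p = 0.00542, SE 0.06) in SM4 against SM2. Without SM2 replicate 3 they were 0.18 (adjusted p = 0.00940) in SM2 against NC and -0.18 (adjusted p = 0.0128) in SM4 against SM2.

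The 3 genes ATP5MC1, ATP5MC2 and ATP5MC3 encode the same mature c subunit of the rotor ring with different import sequences, and they did not share 1 pattern. ATP5MC3, with 279 ± 5.90 CPM in NC the most abundant of the 3, changed by -0.17 (adjusted p = 0.0243, SE 0.05) in SM4 and was at -0.05 (adjusted p = 0.539, SE 0.05) in SM2. ATP5MC1 measured 109.5, 119 and 116 CPM in the libraries labelled NC, 107, 111 and 132 in those labelled SM2 and 96.4, 102 and 98.9 in those labelled SM4. Its SM4 libraries lay below both other groups, with -0.21 (adjusted p = 0.0174, SE 0.06) against NC and -0.23 (adjusted p = 0.015, SE 0.06) against SM2. ATP5MC2 differed between SM4 and SM2 by -0.19 (adjusted p = 0.0193, SE 0.05), with 0.14 (adjusted p = 0.0538, SE 0.05) in SM2 and -0.04 (adjusted p = 0.624, SE 0.05) in SM4 against NC; without SM2 replicate 3 the difference was -0.12 (adjusted p = 0.0589).

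Summed over all 80 genes, the level was 7712, 8174 and 7991 CPM in the libraries labelled NC, 7471, 7544 and 8527 in those labelled SM2 and 7404, 7616 and 7421 in those labelled SM4. The SM4 libraries lay below NC, at a mean difference of -6.02%, and SM2 replicate 3 was the highest of all 9. The SM2 mean was 7848 ± 589.7 CPM with that library and 7508 CPM without it, against 7959 ± 233 in NC and 7479.9 ± 118 in SM4. By complex the SM4 sums differed from NC by -3.17% (I), -10.0% (II), -7.03% (III), -5.45% (IV) and -8.17% (V). These sums are dominated by a few genes, carry no test, and make up 0.776% of the counts.

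All 3 members on chromosome 8, COX6C, NDUFB9 and UQCRB, were among the 11 lower calls of SM4 against NC. Their expressed neighbours within 5 Mb also had medians below 0: the median log2 change in SM4 against NC was -0.09 over 36 genes around COX6C, -0.10 over 28 around NDUFB9 and -0.09 over 37 around UQCRB. In SM4 against SM2 these medians were -0.16, -0.06 and -0.15. Over 415 other protein-coding genes of chromosome 8 the median was -0.05 in SM4 against NC, where only chromosome 18 was lower (-0.06), and -0.09 in SM4 against SM2, the lowest of the 22 autosomes and X. This view was chosen after the values were seen, and the part of the chromosome in the 3 calls was not tested.

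**Figure D5:**
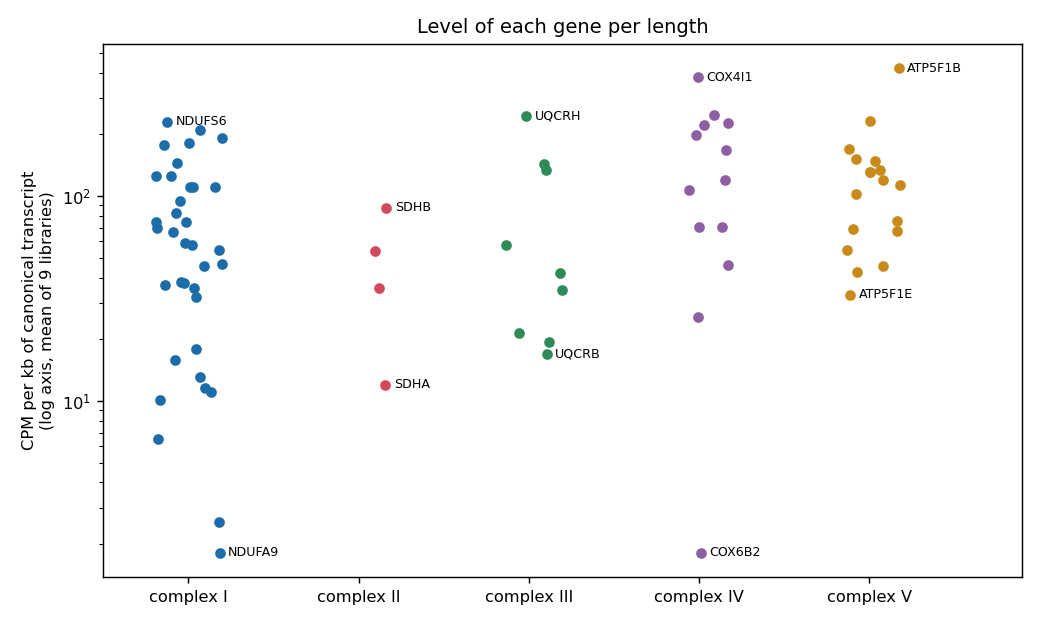
Level of each gene in CPM per kb of its canonical transcript (log axis, mean of 9 libraries) by complex (x axis), with the highest and lowest gene of each complex named. Genes of 1 complex span 1.82 to 230 in complex I and 33.0 to 421 in complex V.

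Levels per length spread widely within each complex. In CPM per kb of canonical transcript, the highest and lowest were NDUFS6 (229.9) and NDUFA9 (1.82) in complex I, SDHB (87.7) and SDHA (12) in complex II, and UQCRH (246) and UQCRB (17.0) in complex III. In complex IV they were COX4I1 (380.2) and COX6B2 (1.82), and in complex V ATP5F1B (421) and ATP5F1E (33.0). The canonical transcripts of NDUFA9 (8356 bases), UQCRB (8459 bases) and NDUFS1 (11660 bases) are long for these families, and which form the cells used was not tested.

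Genes that work around the 5 complexes were taken from lists chosen with earlier results of these data known. Cytochrome c (CYCS), the carrier between complexes III and IV, measured 556, 594 and 554 CPM in the libraries labelled NC, 469.8, 458 and 518 in those labelled SM2 and 455, 448 and 441 in those labelled SM4. All 6 SM2 and SM4 libraries lay below NC, with changes of -0.24 (adjusted p = 7.41e-04, SE 0.05) and -0.34 (adjusted p = 1.30e-05, SE 0.05). CYC1, the haem-bearing complex III subunit whose symbol falls outside the rule, changed by -0.15 (adjusted p = 0.0127, SE 0.04) in SM4 and was at 0.02 (adjusted p = 0.804, SE 0.04) in SM2. Of 59 assembly factors tested, 2 were called higher and 9 lower in SM2, and 2 higher and 16 lower in SM4; SM4 against SM2 gave 2 and 2. These are 18.6%, 30.5% and 6.78% of the list, beside 22.3%, 21.2% and 12.8% of all genes tested and 33.1%, 31.9% and 20.7% of those of at least 20 CPM, the same backgrounds as for each list that follows. Their medians were -0.06, -0.09 and -0.05, beside medians of -0.00 over all genes in each comparison. NDUFAF4, which helps build complex I, changed most among those called in SM2, by -0.38 (adjusted p = 0.00164, SE 0.08), and PET117, a complex IV factor, in SM4, by -0.49 (adjusted p = 0.0336, SE 0.16). ATPAF1, a chaperone of ATP5F1B, changed most between SM4 and SM2, by -0.30 (adjusted p = 8.62e-04, SE 0.06).

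Mitochondrial ribosomal proteins, which make the subunits encoded inside the organelle, had 0 of 78 called higher and 14 lower in SM2, 1 higher and 24 lower in SM4, and 2 higher and 12 lower in SM4 against SM2, which is 17.9%, 32.1% and 17.9% of the list. The members with the largest called change were MRPS2 in SM2 at -0.35 (adjusted p = 1.78e-05, SE 0.05), MRPS25 in SM4 at -0.36 (adjusted p = 1.63e-04, SE 0.06) and MRPL33 between them at -0.30 (adjusted p = 0.0171, SE 0.08). Of 24 protein import genes (TOMM and TIMM), 1 was called higher and 6 lower in SM2, 1 and 5 in SM4, and 0 and 1 in SM4 against SM2, or 29.2%, 25% and 4.17%. The examples are TIMM10 at -0.25 (adjusted p = 0.01, SE 0.07), TIMM9 at -0.30 (adjusted p = 0.00282, SE 0.07) and TOMM34 at -0.21 (adjusted p = 0.00635, SE 0.05) in that order.

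In the pathways that feed the chain, 13 genes of coenzyme Q synthesis gave 3 lower calls in SM2 and 3 in SM4, with 0 higher in either, and 2 higher and 1 lower in SM4 against SM2, or 23.1% in each comparison, near the background of all genes in the first 2. PDSS1, which makes the isoprenoid tail, changed by -0.56 (adjusted p = 5.46e-05, SE 0.09) in SM2 and differed by 0.28 (adjusted p = 0.0338, SE 0.09) between SM4 and SM2, and COQ3, a methyltransferase of the ring, changed by -0.50 (adjusted p = 3.76e-04, SE 0.09) in SM4. Of 24 genes of the citric acid cycle and pyruvate dehydrogenase, 3 were higher and 5 lower in SM2, 2 and 8 in SM4, and 2 and 2 between them, or 33.3%, 41.7% and 16.7%. PDK2, a kinase that switches pyruvate dehydrogenase off, rose by 0.51 (adjusted p = 7.38e-05, SE 0.08) in SM2 and 0.32 (adjusted p = 0.00529, SE 0.08) in SM4, and IDH3A, of the NAD-linked isocitrate dehydrogenase, fell in both and differed by 0.28 (adjusted p = 0.00124, SE 0.05) in SM4 against SM2.

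Regulators of mitochondrial biogenesis (20 tested) gave 1 higher and 3 lower calls in SM2, 1 and 3 in SM4, and 1 and 2 between them, or 20%, 20% and 15%, near the background. Of their estimates, 18, 16 and 8 were below 0, with medians of -0.08, -0.06 and 0.02. ESRRA, a nuclear receptor of oxidative genes, stood at 102 ± 1.89 CPM in NC, 78.9 ± 2.65 in SM2 and 97.5 ± 1.60 in SM4, with -0.37 (adjusted p = 2.86e-06, SE 0.04) in SM2 and 0.31 (adjusted p = 5.94e-05, SE 0.04) in SM4 against SM2. PPARGC1A, its coactivator, was low at 3.06 ± 0.202 CPM in NC and changed by -0.70 (adjusted p = 0.00276, SE 0.16) in SM4. Among 7 adenine nucleotide and porin carriers, 2 were higher and 1 lower in SM2, 0 and 2 in SM4, and 0 and 1 between them, or 42.9%, 28.6% and 14.3%, with SLC25A6 at 0.18 (adjusted p = 0.00982, SE 0.05) in SM2 and -0.27 (adjusted p = 4.52e-04, SE 0.05) in SM4 against SM2 and VDAC1 at -0.17 (adjusted p = 0.00479, SE 0.04) in SM4.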

How the data were processed

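Poly(A) RNA of 9 OVCAR5 libraries was sequenced. The authors deposited raw counts per gene, without normalization; per the labels, fastp, HISAT2 and featureCounts of Subread were used with build GRCh38 (hg38), without versions. The gene annotation and strand setting are not given in the sources used here, and the labels and the methods name different kits and read layouts. Of 60649 identifiers, 60463 matched GENCODE 44 without version, which gave symbols, positions and canonical transcripts; 0 per-sample columns were unused.

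In R 4.3.3, edgeR 4.0.16 was run on the counts: filterByExpr left 19674 genes (40975 removed), TMM factors were 0.989 to 1.01, and the quasi-likelihood F test used all 9 libraries with group alone, with Benjamini-Hochberg adjustment over all genes tested and calls at an adjusted p under 0.05. The common biological coefficient of variation was 0.0587. CPM are TMM-normalized; counts carry no molecular identifiers, so depth sets only a lower limit on error. Sums and neighbour medians (5 Mb on each side) have no test. Replicate numbers were not treated as pairs in the main fit. Deviations of same-numbered libraries correlated between -0.16 and 0.23 across genes, as against -0.31 to 0.22 for different numbers. These ranges overlap and cannot settle whether libraries were paired, so a fit with a replicate block is also given. Fits were tested on simulated counts. Alternatives were DESeq2 1.42.0, other normalizations and filters, length and GC trends removed, a replicate block and leaving out each library. The members and lists were chosen with earlier results of these data known. Named genes were METTL3, the extreme called members per complex and comparison, core subunits (1 member is not reported here by name), isoform families, extremes per length, and the called gene of largest change in each list.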

Additional observations from a re-analysis of the deposited data

Results flagged for a closer look

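With the groups as labelled, which METTL3 goes against, the effects in SM2 and SM4 against NC differed from each other, by the edgeR quasi-likelihood test of SM4 against SM2, for 6 of the 80 genes and for METTL3. The 6 are 7.5% of the 80, beside 12.8% of all genes tested. COX6C differed by -0.35 (adjusted p = 0.00235, SE 0.07) on the log2 scale, and for all 6 genes 3 of 3 SM4 libraries lay below every SM2 library. The 6 genes were picked by the test on these same libraries, so this separation adds no support. ATP5IF1 was at -0.25 (adjusted p = 0.00542, SE 0.06), ATP5MC1 at -0.23 (adjusted p = 0.015, SE 0.06) and ATP5MC2 at -0.19 (adjusted p = 0.0193, SE 0.05). UQCRB differed by -0.20 (adjusted p = 0.0489, SE 0.07) and NDUFB7 by -0.19 (adjusted p = 0.0453, SE 0.06), and both, with ATP5MC2, missed the threshold without SM2 replicate 3. METTL3 differed by 0.63 (adjusted p = 7.46e-08, SE 0.05), higher in 3 of 3 SM4 libraries, and its call held in all 19 other fits.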

How the results depend on the processing

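METTL3 kept its direction and its side of the threshold in all 3 comparisons under all 19 other fits. Of 513 refits of single called genes, 408 kept the call, 105 lost it and 0 turned direction. Calls held throughout for NDUFA2, NDUFB11, ATP5IF1, SDHD and ATP5PF in SM2 against NC, for SDHB and ATP5F1B in SM4 against NC, and for COX6C and ATP5IF1 in SM4 against SM2. UQCRC2 and SDHB in SM2 against NC lost theirs in 12 and 11 fits, NDUFB7 in SM4 against SM2 in 12, UQCRB in 9 in each of its comparisons, NDUFB5 in 9, and NDUFA4 and NDUFB9 in 7; the causes were not tested.

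The count of members called in SM2 against NC (8) moved to 5 with only the 6 libraries compared (19.4% of all genes called in that fit), to 19 with the length trend removed (26.2%), to 18 with length and GC trends removed (25.8%), to 20 with a replicate block and the length trend removed (27.1%), and to 5 at an adjusted p under 0.01 (14.1%), beside 22.3% of all genes for the 8. Leaving out 1 library gave 5 (NC replicate 2, NC replicate 3 or SM2 replicate 2) to 25 (SM2 replicate 3). In these fits 15.9%, 18.5%, 17.4% and 22.9% of all genes were called, in that order. In SM4 against NC (13) the count moved to 24 with only the 6 libraries (27.2% of all genes) and to 2 at an adjusted p under 0.01 (13.4%), beside 21.2%. Leaving out 1 library gave 5 there (NC replicate 2, SM4 replicate 1 or SM4 replicate 3, with 14.5%, 15.3% and 15.3% of all genes) to 23 (SM2 replicate 3, 25.9%). It gave 8 without NC replicate 1 (15.8%) or 3 (17.1%). In SM4 against SM2 (6) the count moved to 13 with no filter on low counts (7.06% of all genes) and to 2 at an adjusted p under 0.01 (7.08%), beside 12.8%. Leaving out 1 library gave 2 there (SM4 replicate 3, 8.48% of all genes) to 14 (SM2 replicate 1, 12.1%), with 3 without SM4 replicate 1 (7.82%).

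With the replicate block alone, the paired fit called 11, 16 and 8 members in the 3 comparisons, or 13.8%, 20% and 10% of the members. In that fit 23.9%, 22.8% and 14.3% of all genes were called. The block ended no call made without it. The split of higher and lower calls in SM2 against NC was 3 and 5; it was 5 and 2 with upper-quartile normalization, 7 and 4 with no filter, 5 and 6 with a filter at a mean of 1 CPM, 5 and 5 with DESeq2, and 8 and 3 without SM2 replicate 1. In SM4 against NC upper-quartile normalization gave 3 and 8 in place of 2 and 11. In SM4 against SM2 the length trend removed gave 2 and 5 in place of 0 and 6, and leaving out SM2 replicate 3 gave 4 and 3. Precision was lowest for members of few counts: standard errors of the log2 change reached 0.17 for NDUFV2 and COX6B2 and 0.13 for NDUFA13.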
